A study of Ovis aries with 32 samples.

Results

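The genes described here make, bind and read retinoic acid in fetal sheep fat cells. They are ALDH1A1, ALDH1A2 and ALDH1A3, which are retinaldehyde dehydrogenases, RBP4 and CRABP2, which are retinoid binding proteins, and RARA, RARB, RARG and RXRA, which are nuclear receptors. They were taken by gene name, from a list chosen with earlier results of these data known. They are 9 of the 21271 genes and 20 of the 35219 transcripts of the deposited table. RNA was sequenced from preadipocytes of the perirenal fat of near-term fetuses of Columbia-Rambouillet ewes carrying singletons, and from such cells after differentiation to mature adipocytes in culture. The 8 groups of 4 libraries are preadipocytes of control males (MC), control females (FC), growth-restricted males (MFGR) and growth-restricted females (FFGR), and the differentiated cells of the same kinds of fetuses (MCD, FCD, MFGRD and FFGRD). Growth restriction came from housing the pregnant ewe in ambient heat for a stretch of gestation, which makes the placenta insufficient, whereas the control ewes were kept cool and pair-fed. Growth restriction therefore stands for a maternal treatment, and the culture and differentiation conditions are not given in the sources used here. The sources also do not say whether the 4 libraries of a group came from separate fetuses, so the p-values measure only the spread between these libraries.

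Retinol travels in blood bound to RBP4 and is oxidised inside cells to retinaldehyde, which the ALDH1A enzymes turn irreversibly into retinoic acid. CRABP2 carries retinoic acid to the nucleus, where the RAR proteins bind it and act on DNA as pairs with an RXR protein. RXR proteins are also the partners of PPARG, the receptor that drives fat cell formation, and retinoic acid given early is known to hold back the differentiation of preadipocytes.

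The unit throughout is the normalised read, a read count that the authors scaled between libraries with DESeq2, and a gene's value is the sum over its transcripts. The libraries held approximately 7.73 M to 21.3 M reads, and 3 reads corresponded to 2.09 to 5.37 normalised reads. Values are not divided by transcript length, so levels are compared between libraries and not between genes. A tree of the libraries set 7 of them apart from the other 25, namely 4 of preadipocytes (FC replicate 2, FFGR replicates 2 and 3, MFGR replicate 1) and 3 of differentiated cells (FFGRD replicate 3, MCD replicate 4, MFGRD replicate 1), and values without these 7 are given where they changed a call. Of 11 adipocyte markers tested, 11 were higher in differentiated cells, and their summed level ran from 66.1 to 1391 normalised reads in preadipocytes and from 354.7 to 188556 in differentiated cells. The lowest differentiated library was FCD replicate 4, in which ADIPOQ, the gene of the fat cell hormone adiponectin, had 8.59 normalised reads against 146.1 to 13421 in the other 15. Markers of smooth muscle and pericytes were lower in differentiated cells for 3 of 4 tested, with summed levels of 6203 to 59998 in preadipocytes and 604.9 to 15401 in differentiated cells. Of 3 immune markers tested 2 were higher and 1 was lower, with sums of 90.3 to 1014 in preadipocytes and 121.8 to 942.5 in differentiated cells. PTPRC, which marks blood cells, was at 0 in 20 of 32 libraries, whereas CD163 was at 0 in 4 and CD14 and CD68 in 0. Of 4 adrenal cortex markers tested 3 were higher, with sums of 3.22 to 89.8 in preadipocytes and of 19.8 to 1368 in differentiated cells. The sum of 1368 was that of FCD replicate 1. MC2R was at 0 in 31 libraries, but STAR was at 0 in 0 libraries and reached 509.3. The median of CYP11A1 was 0 in preadipocytes and 13.9 in differentiated cells. Endothelial markers summed to at most 285.1, with CDH5 at 0 in 25 libraries, KDR and VWF at 0 in 4 each and 1 of 3 tested lower. Mesothelial markers summed to at most 2223, with CALB2 at 0 in 28 libraries and WT1 at 0 in 0. Of the mesothelial markers 0 of 4 tested changed (limma, 0 also at an unadjusted p under 0.05). Of 8 preadipocyte and fibroblast markers tested, 4 were lower and 1 was higher. The part of these other cell types in the values below was not tested, and in such bulk samples fewer cells of a type and less RNA per cell cannot be told apart.

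Differentiation shifted the retinoid genes in both directions. Averaged over the 4 kinds of fetuses, ALDH1A1, RXRA and RBP4 were higher in differentiated cells, and CRABP2, ALDH1A3, RARG and RARB were lower, whereas ALDH1A2 and RARA did not pass the test. These are 7 of the 9 genes, against 27.2% of the 12737 genes tested (12.4% higher and 14.8% lower), and 7 were also called without the 7 libraries set apart. A gene was called when its adjusted p was below 0.05 and its fold change above 1.5, after testing differences of mean log2(value + 1) in limma with Benjamini-Hochberg adjustment over all genes tested, and every log2 difference below is on that scale. Within single kinds of fetuses, 4 of the 8 retinoid genes tested were called in males without growth restriction (MCD against MC, where 7.53% of all genes tested were called, 3.33% higher and 4.21% lower). Only 2 of 8 were called in FCD against FC, where 0.43% of all genes were (0.181% higher and 0.249% lower). In the growth-restricted males (MFGRD against MFGR) 3 of 8 were called against 3.38% of all genes (1.22% higher and 2.16% lower), and in the growth-restricted females (FFGRD against FFGR) 3 of 8 against 2.67% (0.914% higher and 1.76% lower). ALDH1A2 was too low for testing in the single comparisons. RARG was called in each of the 4, ALDH1A3 in 3, ALDH1A1 and CRABP2 in 2 and RXRA in 1.

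**Figure D1:**
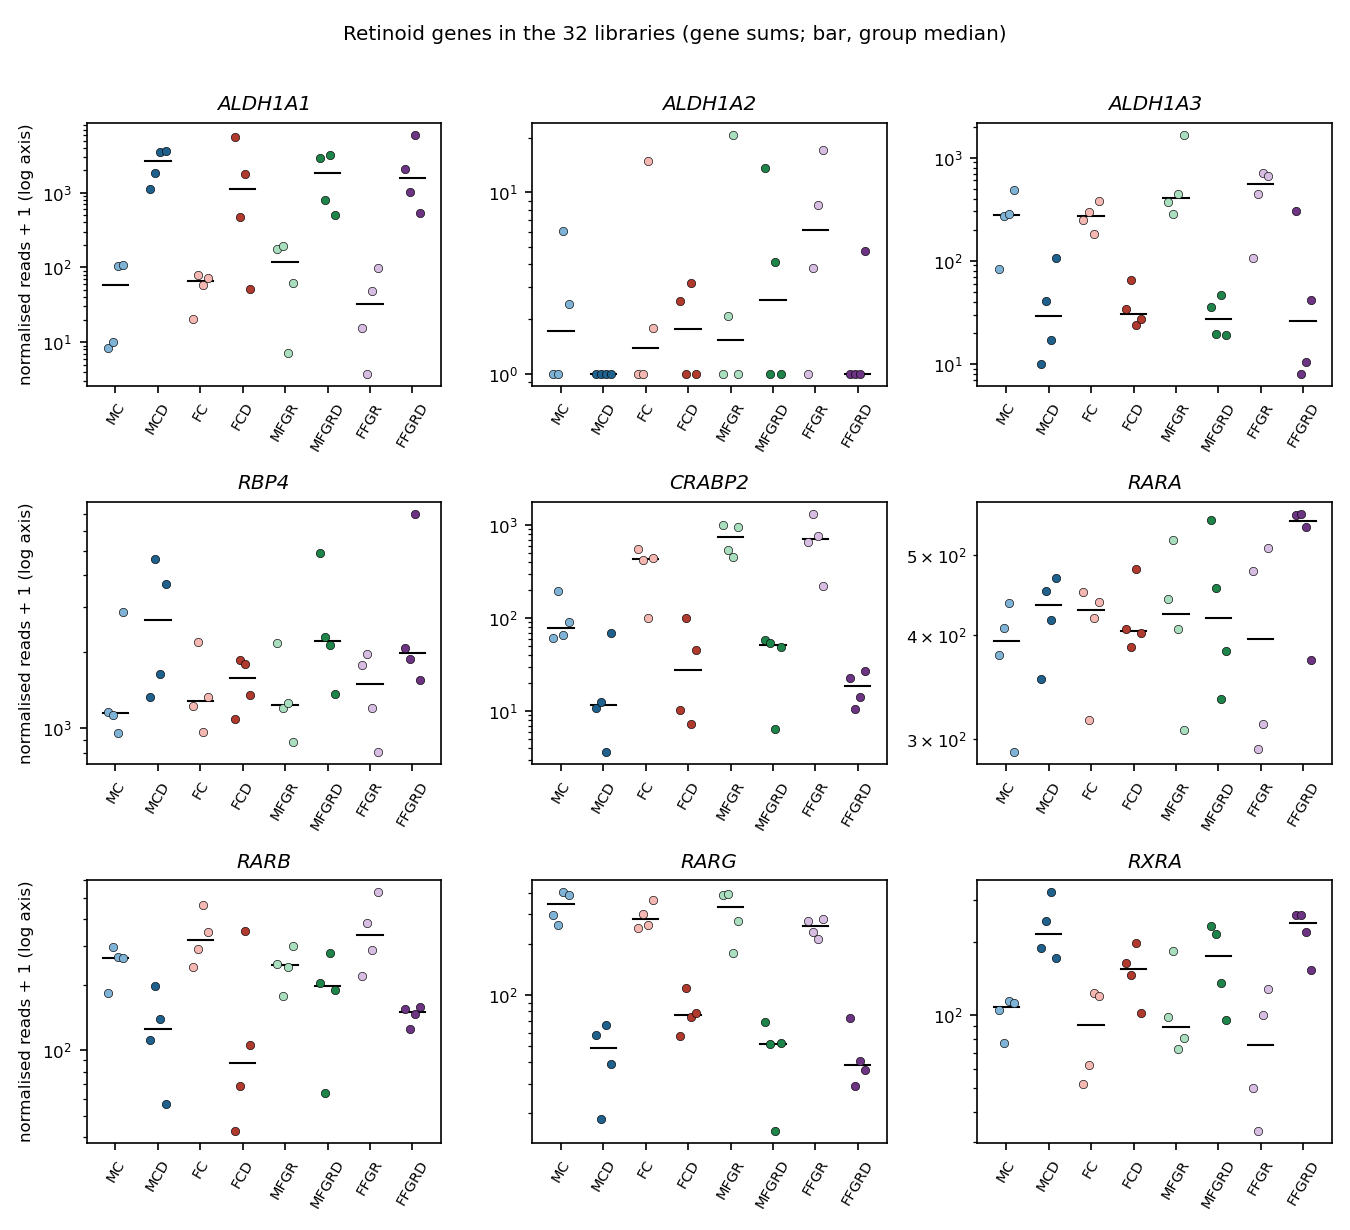
Normalised reads plus 1 on log axes for the 9 retinoid genes, with 1 point per library, 4 libraries in each of the 8 groups (M male, F female, C control, FGR growth restricted, final D differentiated) and a bar at the group median. RARG was lower in all 16 differentiated libraries than in any preadipocyte library, and ALDH1A1 was higher in 15 of 16 than in any preadipocyte library.

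**Figure D2:**
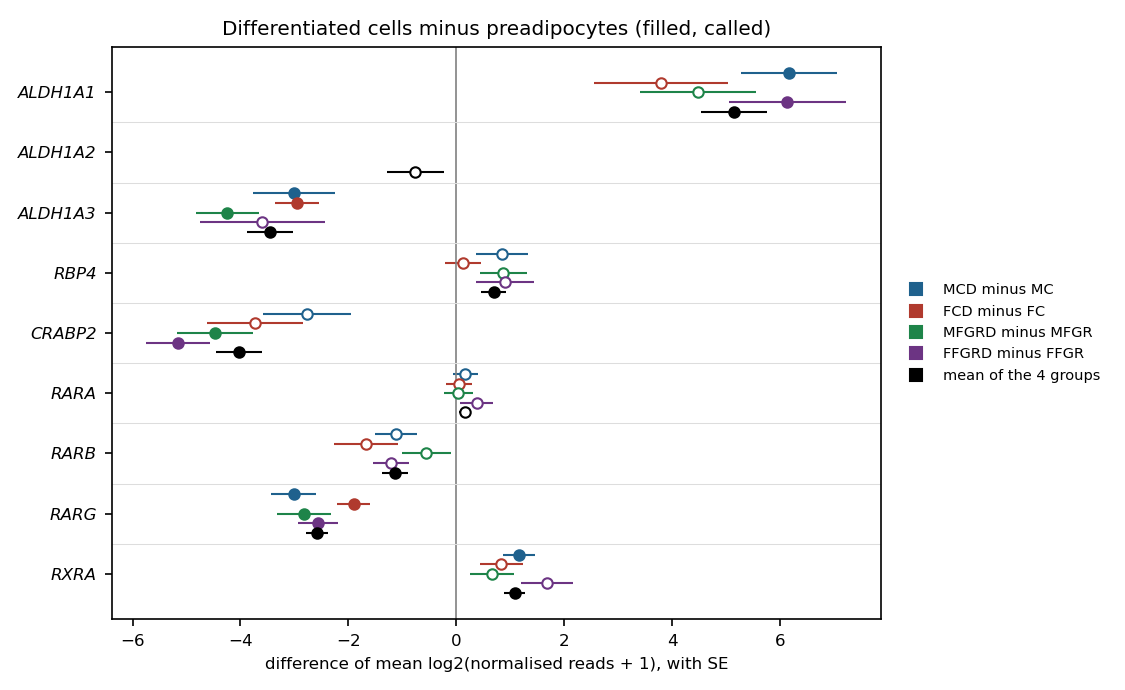
Difference of mean log2(normalised reads + 1) between differentiated cells and preadipocytes for each retinoid gene (points, with standard errors as bars), in the 4 kinds of fetuses and on average, with filled points where the gene was called. ALDH1A1 lies furthest to the right, at 5.14 on average, and CRABP2 furthest to the left, at -4.03.

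ALDH1A1 (ENSOARG00020014246, chromosome 2, 68106756 to 68163247 of Oar_rambouillet_v1.0, 4 transcripts) encodes a retinaldehyde dehydrogenase that is abundant in fat. In MC the 4 libraries held 7.34, 9.12, 105 and 106 normalised reads, and in MCD they held 1111, 1847, 3506 and 3569. In FC they held 19.2, 77.7, 57.6 and 70.3, and in FCD 5619.9, 468, 1795 and 50.8. MCD lay wholly above MC, but FCD replicate 4, the library with little ADIPOQ, stayed within the range of FC, so the female control groups overlapped. In MFGR the values were 175, 195, 6.14 and 61.1, and in MFGRD 2871, 810.1, 3189 and 506. In FFGR they were 14.5, 2.78, 48.0 and 97.3, and in FFGRD 2109, 1032, 5954 and 536. The growth-restricted groups did not overlap between the stages in either sex. FCD replicate 1, the highest FCD library for ALDH1A1, also had the highest adrenal cortex marker sum of all libraries, at 1368, with ADIPOQ at 991. The library with the highest such sum was also highest in ALDH1A1 in MCD and FFGRD, but not in MFGRD. The part of adrenal cells in the ALDH1A1 values was not tested. Over all libraries ALDH1A1 averaged 65.7 ± 59.0 (SD, n = 16) in preadipocytes and 2186 ± 1804 (SD, n = 16) in differentiated cells. The mean log2 difference of the 4 kinds of fetuses was 5.14 (SE 0.62, adjusted p = 2.66e-07), which is 35.4-fold on that scale. Singly it was 6.17 (SE 0.88, adjusted p = 0.00452) in MCD against MC and 6.14 (SE 1.09, adjusted p = 0.03) in FFGRD against FFGR, both called. It was 4.48 (SE 1.08, adjusted p = 0.063) in MFGRD against MFGR, which was called with the replicate number as a block (adjusted p = 0.0353), and 3.79 (SE 1.25, adjusted p = 0.243) in FCD against FC, which was not called either way. The call in FFGRD against FFGR ended without the libraries set apart in the tree (log2 difference 4.76, adjusted p = 0.0989), and it ended in 5 of the 8 fits that left out a single library (FFGR replicates 1, 2 and 3 and FFGRD replicates 1 and 2), with log2 differences of 5.271 to 6.503 and adjusted p of 0.0657 to 0.109.

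ALDH1A3 (ENSOARG00020004379, chromosome 18, 5338210 to 5380603, 2 transcripts), another enzyme of the same family, went the other way. In MC it held 82.0, 271, 280.4 and 484 normalised reads, and in MCD 8.96, 39.6, 16.2 and 105. In FC it held 246, 298, 179.9 and 375, and in FCD 32.7, 63.6, 22.6 and 26.1. The female control groups were separate, while MCD replicate 4 lay above the lowest MC library. In MFGR the values were 368, 286, 445 and 1661, and in MFGRD 34.2, 18.5, 45.8 and 18.1. In FFGR they were 106, 443, 714 and 656, and in FFGRD 303, 7.02, 9.42 and 40.5. MFGRD lay wholly below MFGR, and in FFGRD replicate 1 stood far above the other 3 libraries and within the range of FFGR. ALDH1A3 fell from 431 ± 371 (SD, n = 16) to 49.4 ± 71.9 (SD, n = 16), with a mean log2 difference of -3.45 (SE 0.43, adjusted p = 5.27e-07). It was -3.01 (SE 0.76, adjusted p = 0.0427) in MCD against MC, -2.95 (SE 0.41, adjusted p = 0.0237) in FCD against FC and -4.24 (SE 0.58, adjusted p = 0.00884) in MFGRD against MFGR, all 3 called. In FFGRD against FFGR it was -3.59 (SE 1.16, adjusted p = 0.167) and not called. Leaving out a single library ended the MCD call in 5 of 8 fits (all but MC replicate 1 and MCD replicates 1 and 4, adjusted p of 0.0846 to 0.128) and the FCD call in 6 of 8 (all but FC replicate 2 and FCD replicate 2, adjusted p of 0.0638 to 0.131), with log2 differences between -3.17 and -2.66 and between -3.14 and -2.77.

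These enzymes were set against each other after their opposite courses were seen, so their ratio describes the same values again and is not further evidence. The log2 ratio of ALDH1A1 to ALDH1A3 reads, in which transcript length cancels when libraries are compared, lay between -6.87 and -0.55 in the 16 preadipocyte libraries (median -2.76). In the 16 differentiated libraries it lay between 0.93 and 9.16 (median 5.80). The ranges did not overlap, and FCD replicate 4 gave the value of 0.93.

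ALDH1A2 (ENSOARG00020021892, chromosome 7, 53529860 to 53647341, 2 transcripts), the retinaldehyde dehydrogenase known from the early embryo, was near the limit of counting. It was at 0 in 7 of the 16 preadipocyte libraries and 11 of the 16 differentiated libraries, and it exceeded 3 reads in 5 and in 3 of them. In the 4 MCD libraries it was at 0, and its highest values were 19.7 normalised reads in MFGR replicate 3 and 15.98 in FFGR replicate 4. The mean log2 difference with differentiation was -0.76 (SE 0.52, adjusted p = 0.294), and a difference was not detectable at this depth.

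RBP4 (ENSOARG00020017216, chromosome 22, 16938324 to 16944498, 1 transcript), the blood carrier of retinol that fat cells also secrete, was well above the counting limit in both stages. In MC it held 1160.2, 1124, 954 and 2870.2 normalised reads, in MCD 1327, 4653, 1641 and 3712. In FC it held 1226, 2175, 961 and 1322, in FCD 1082, 1850.3, 1788 and 1349. The control groups overlapped in both sexes. MFGR libraries held 2170.1, 1197, 1260.1 and 878, and MFGRD libraries held 4927, 2287, 2136 and 1358. FFGR libraries held 1776, 1951, 1201 and 801, and FFGRD libraries held 2075, 1868, 7020.1 and 1539.8. These groups overlapped as well, and the highest libraries were MFGRD replicate 1 and FFGRD replicate 3, both among those set apart. The slope of values on genomic span was more negative in each library set apart than in any other library. Within MC, FC, FCD, FFGR, MFGR, MFGRD and FFGRD, the library with the most negative slope also held the most RBP4. In MCD RBP4 was highest in replicate 2, and the slope was most negative in replicate 4. With this slope as a covariate RBP4 was still called in the mean of the 4 kinds of fetuses. The part of the slope in the RBP4 values was not otherwise tested. RBP4 was 1439 ± 581 (SD, n = 16) in preadipocytes and 2538 ± 1669 (SD, n = 16) in differentiated cells, and 12 of the 16 differentiated libraries lay above the preadipocyte mean of their own kind of fetus. The mean log2 difference was 0.69 (SE 0.24, adjusted p = 0.0266), a fold of 1.61, just past the threshold. Without FFGRD replicate 3 it was 0.57, under the 1.5-fold threshold (adjusted p = 0.0434), and without the 7 libraries set apart it was 0.60 (adjusted p = 0.0318). In the single comparisons RBP4 was not called, with log2 differences from 0.13 in FCD against FC to 0.91 in FFGRD against FFGR, but it passed in MFGRD against MFGR (0.88) with the replicate number as a block (adjusted p = 0.0139).

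CRABP2 (ENSOARG00020026113, chromosome 1, 112820760 to 112826241, 1 transcript), the protein that hands retinoic acid to its receptors, had the largest mean fall of the 9 genes. In MC it held 59.8, 196, 65.2 and 91.0 normalised reads, and in MCD 9.84, 11.6, 2.61 and 69.1. In FC it held 559, 418, 101 and 439, and in FCD 9.22, 98.3, 6.36 and 44.4. FCD lay below FC throughout, by a narrow margin at FCD replicate 2, while MCD replicate 4 reached into the range of MC. In MFGR the values were 995, 533, 454 and 958, and in MFGRD 56.7, 52.7, 5.47 and 47.6. In FFGR they were 656, 1331, 759 and 222, and in FFGRD 22.0, 9.52, 13.1 and 25.8. Both growth-restricted pairs were widely separated. CRABP2 fell from 489.8 ± 377 (SD, n = 16) to 30.3 ± 28.0 (SD, n = 16), with a mean log2 difference of -4.03 (SE 0.42, adjusted p = 2.91e-08), 16.3-fold lower. It was -4.47 (SE 0.70, adjusted p = 0.014) in MFGRD against MFGR and -5.16 (SE 0.59, adjusted p = 0.00864) in FFGRD against FFGR, both called. In MCD against MC it was -2.76 (SE 0.82, adjusted p = 0.0721) and in FCD against FC -3.73 (SE 0.88, adjusted p = 0.126), which were not called but passed with the replicate number as a block (adjusted p = 0.0226 and 0.0483). Without the libraries set apart the FFGRD call ended (-4.36, adjusted p = 0.0725) and MCD against MC passed (-3.55, adjusted p = 0.0208).

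RARG (ENSOARG00020007395, chromosome 3, 142792005 to 142811570, 3 transcripts), a retinoic acid receptor known from skin and cartilage, fell in each kind of fetus. In MC it held 295, 257, 403 and 388 normalised reads, and in MCD 56.8, 17.6, 65.6 and 38.3. In FC it held 248, 299, 258 and 364, and in FCD 56.3, 109, 72.9 and 77.1. Neither control pair overlapped. In MFGR the values were 388, 393, 176 and 272, and in MFGRD 68.6, 50.3, 14.7 and 50.9. In FFGR they were 272, 234, 212 and 280.1, and in FFGRD 72.5, 28.2, 40.0 and 35.3. The highest differentiated library, FCD replicate 2, was still below the lowest preadipocyte library, MFGR replicate 3. RARG fell from 296 ± 70.4 (SD, n = 16) to 53.4 ± 24.4 (SD, n = 16), with a mean log2 difference of -2.57 (SE 0.20, adjusted p = 3.04e-10), 5.96-fold lower. Singly it was -3.01 (SE 0.42, adjusted p = 0.00406) in MCD against MC, -1.90 (SE 0.30, adjusted p = 0.0424) in FCD against FC, -2.83 (SE 0.50, adjusted p = 0.0233) in MFGRD against MFGR and -2.56 (SE 0.37, adjusted p = 0.0168) in FFGRD against FFGR. The MCD call held in each of the 8 fits that left out a library. The FCD call ended in 6 of them (all but FC replicate 2 and FCD replicate 2, log2 differences of -1.97 to -1.76, adjusted p of 0.0839 to 0.194). The MFGRD call ended in 4 (MFGR replicates 2 and 4 and MFGRD replicates 2 and 4, -2.94 to -2.68, adjusted p of 0.0575 to 0.0919), and the FFGRD call in 4 (FFGR replicates 2, 3 and 4 and FFGRD replicate 2, -2.63 to -2.38, adjusted p of 0.0571 to 0.0778) and without the libraries set apart (-2.70, adjusted p = 0.0801).

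RARB (ENSOARG00020019726, chromosome 26, 43635552 to 43883826, 2 transcripts), a receptor whose own gene is a textbook target of retinoic acid, was lower on average but less evenly. In MC it held 181, 295, 266 and 264 normalised reads, and in MCD 111, 197, 138 and 55.9. In FC it held 241, 291, 460.3 and 347, and in FCD 41.7, 67.6, 352 and 105. Both control pairs overlapped, in females through FCD replicate 3 alone. MFGR libraries held 247, 176, 241 and 301, and MFGRD libraries held 202, 62.9, 277 and 189. FFGR libraries held 218, 384, 288 and 529, and FFGRD libraries held 153, 125, 146 and 157. FFGRD was separate from FFGR and tightly grouped, whereas MFGRD overlapped MFGR over most of its range. RARB fell from 295 ± 95.1 (SD, n = 16) to 149 ± 82.7 (SD, n = 16), with a mean log2 difference of -1.14 (SE 0.24, adjusted p = 0.00048). None of the 4 single comparisons called it in limma, and 3 of them had an unadjusted p under 0.05, with log2 differences of -1.11 in MCD against MC (adjusted p = 0.118), -1.67 in FCD against FC (0.278), -0.56 in MFGRD against MFGR (0.662) and -1.21 in FFGRD against FFGR (0.113).

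RARA (ENSOARG00020008581, chromosome 11, 22587427 to 22629486, 4 transcripts), the most widely expressed receptor of the family, had the smallest ratio of highest to lowest library among the 8 genes that were above 0 in every library. Its values ran from 288 to 519.5 normalised reads in preadipocytes (median 413) and from 334 to 559 in differentiated cells (median 433). The stages overlapped in each kind of fetus. The mean log2 difference was 0.16 (SE 0.11, adjusted p = 0.302), and the single ones lay between 0.04 and 0.38. The mean difference was -0.0022 without the 7 libraries set apart.

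RXRA (ENSOARG00020001706, chromosome 3, 1889633 to 1978894, 1 transcript), the shared partner of the RAR proteins and of PPARG, rose. In MC it held 104, 75.4, 114 and 111 normalised reads, and in MCD 188, 244, 321 and 171. In FC it held 50.7, 61.3, 123 and 118, and in FCD 163, 146, 197 and 101. The male control groups were separate, while the female ones overlapped at FCD replicate 4. MFGR libraries held 97.4, 182, 71.1 and 79.6, and MFGRD libraries held 231, 214, 135 and 94.9. FFGR libraries held 48.9, 32.2, 99.3 and 128, and FFGRD libraries held 258, 259, 220.3 and 152. FFGRD was separate from FFGR, and MFGRD overlapped MFGR, in which replicate 2 was the highest. RXRA rose from 93.5 ± 37.4 (SD, n = 16) to 193 ± 61.6 (SD, n = 16), with a mean log2 difference of 1.09 (SE 0.20, adjusted p = 9.91e-05), a fold of 2.12. It was 1.16 (SE 0.30, adjusted p = 0.0447) in MCD against MC, the only single comparison that called it. That call ended in 7 of the 8 fits that left out a library (all but MCD replicate 1), with log2 differences of 0.99 to 1.29 and adjusted p of 0.0530 to 0.132, MCD replicate 4 being also the library of this pair that was set apart. The log2 differences were 0.84 in FCD against FC (adjusted p = 0.43), 0.66 in MFGRD against MFGR (0.53) and 1.69 in FFGRD against FFGR (0.118).

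Whether growth restriction or sex changed these genes was asked in 8 single comparisons, in 4 contrasts pooled over sex or growth and in 3 contrasts of the differentiation response. None of the 127 values tested passed, with a lowest adjusted p of 0.840 in limma, and 3 had an unadjusted p under 0.05, all of CRABP2. The background was the same, since 0% of all genes tested were called in each of these 15 comparisons, with 183 genes at an unadjusted p under 0.05 in MFGR against MC, 87 in FFGR against FC, 168 in MFGRD against MCD, 112 in FFGRD against FCD, 146 in MC against FC, 445 in MCD against FCD, 144 in MFGR against FFGR and 37 in MFGRD against FFGRD. Pooled, the numbers were 344 for growth restriction in preadipocytes, 136 in differentiated cells, 550 and 159 for sex in the same order, 132 and 116 for growth restriction and sex in the differentiation response, and 74 for the response of MFGR against the other 3 kinds of fetuses. The contrasts that share a group of libraries are not independent of each other. With DESeq2 at the same thresholds, the study itself reported genes that differed between males and females in each growth group and stage. The 0% here therefore does not show that no gene differs.

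CRABP2 in preadipocytes had the lowest unadjusted p of these values. MFGR, at 453.9 to 994.6 normalised reads, lay wholly above MC, at 59.8 to 196.2, with a log2 difference of 2.91 (SE 0.44, unadjusted p = 9.89e-05), but the adjusted p was 0.991. FFGR and FC overlapped, with a log2 difference of 0.96 (SE 0.69, adjusted p = 0.985). Pooled over sex the difference was 1.93 (SE 0.59, unadjusted p = 0.00303, adjusted p = 0.84). MC had a lower mean than FC, with a log2 difference of -1.79 (SE 0.59, unadjusted p = 0.0146, adjusted p = 1.00), and these groups overlapped. In differentiated cells the log2 differences were 1.20 (SE 1.00) in MFGRD against MCD and -0.47 (SE 0.85) in FFGRD against FCD. The response to differentiation differed between growth-restricted and control cells by -1.57 (SE 0.84, unadjusted p = 0.0729, adjusted p = 0.988). That contrast was not fitted with the replicate number as a block. These differences fail the correction over all genes and are reported as such. Across the other 7 genes tested, the log2 differences ran from -0.17 to 1.17 in MFGR against MC and from -1.14 to 0.54 in FFGR against FC. They ran from -0.69 to 0.49 in MFGRD against MCD and from -0.88 to 1.21 in FFGRD against FCD.

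**Figure D3:**
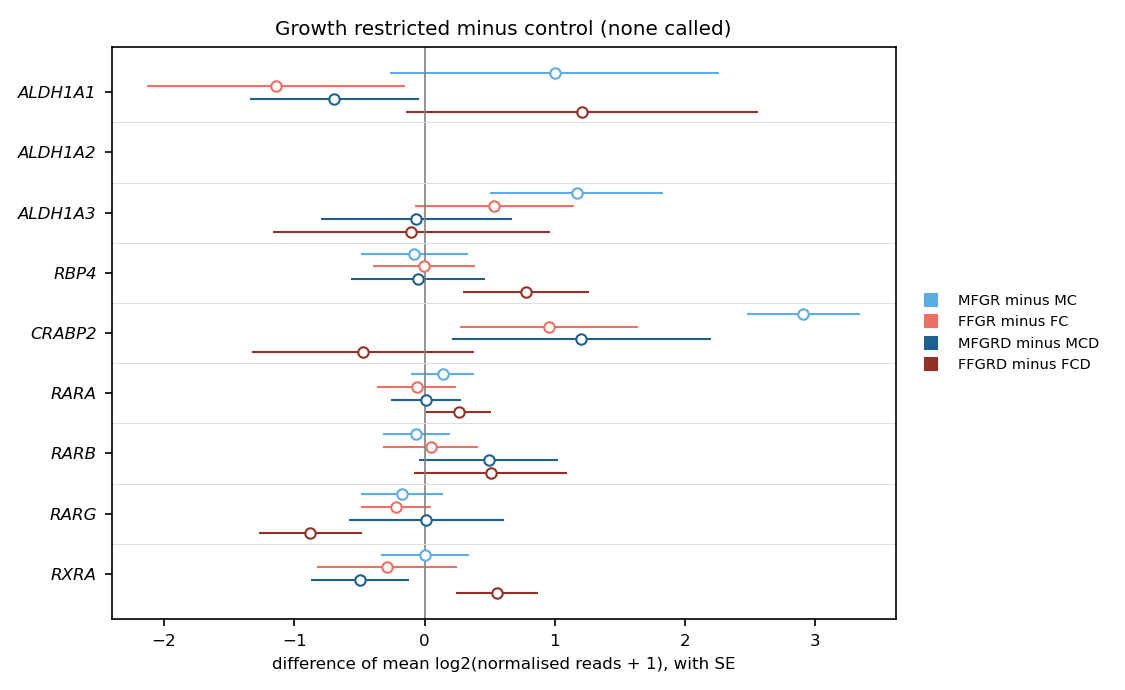
Difference of mean log2(normalised reads + 1) between growth-restricted and control libraries for each retinoid gene, with standard errors as bars, in preadipocytes (light) and differentiated cells (dark) of males (blue) and females (red). Open points show that no difference was called, and CRABP2 in MFGR minus MC is the point furthest to the right, at 2.91.

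The order of the 8 groups by median followed the stage for most of these genes. For ALDH1A1, RBP4 and RXRA the 4 differentiated groups had the 4 highest medians, and for ALDH1A3, CRABP2, RARG and RARB the 4 lowest. ALDH1A1 was highest in MCD and lowest in FFGR, RBP4 was highest in MCD and lowest in MC, and RXRA was highest in FFGRD and lowest in FFGR. ALDH1A3 was highest in FFGR and lowest in FFGRD, CRABP2 was highest in MFGR and lowest in MCD, RARG was highest in MC and lowest in FFGRD, and RARB was highest in FFGR and lowest in FCD. Of the 63 pairs of neighbouring groups in these orders, 60 overlapped. The 3 that did not were the step from the lowest preadipocyte group to the highest differentiated group, found in ALDH1A3 (FC to FCD), RARG (FFGR to FCD) and CRABP2 (MC to MFGRD), each with an exact permutation p of 0.0286, the smallest that 4 against 4 libraries can give. Because the neighbours were set by sorting these same values, the p-values are descriptive only. The share of such steps over all genes is not given here.

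The transcripts of a gene mostly moved with it. In the mean of the 4 kinds of fetuses 13 of the 15 transcripts tested were called, against 19.8% of the 19469 transcripts tested (9.02% higher and 10.8% lower), and the 2 not called were RARA-201 (log2 difference -0.02) and RARA-204 (0.33, adjusted p = 0.052). ALDH1A1-202 held 90.2% of the gene's reads in preadipocytes and 83.2% in differentiated cells, and ALDH1A1-201 went from 5.45% to 10.4%. ALDH1A1-202 and ALDH1A1-203 were called in MCD against MC, with log2 differences of 5.99 and 6.65, as was RARG-203 (-3.06). These were the 3 calls of that comparison among 14 transcripts tested, against 2.83% of all transcripts (1.47% higher and 1.36% lower). In MFGRD against MFGR 3 of 13 were called against 1.32% of all (0.609% higher and 0.71% lower), namely CRABP2-201, ALDH1A3-201 (-3.59) and ALDH1A3-202 (-6.94). In FFGRD against FFGR it was CRABP2-201, 1 of 13 against 0.616% (0.258% higher and 0.358% lower), and in FCD against FC 0 of 12 against 0.143% (0.081% higher and 0.0623% lower, limma, 5 of the 12 at an unadjusted p under 0.05). With the replicate number as a block, 6 transcripts were called in MFGRD against MFGR. Without the libraries set apart 0 were called in each of the 4 single comparisons (limma).

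ALDH1A3-202 took 31.9% of the gene's reads in preadipocytes and 18.4% in differentiated cells. It was at 0 in 2 of 4 MCD, 2 of 4 FCD, 3 of 4 MFGRD and 2 of 4 FFGRD libraries, and also at 0 in FC replicate 1 and FFGR replicate 1. RARG-203 held 80.1% of the RARG reads before and 79.2% after differentiation, and each of its 3 transcripts was called lower in the mean. RARA was split between RARA-204 (52.5% in preadipocytes, 59.4% in differentiated cells) and RARA-201 (46.4% and 40.3%), while RARA-202 appeared in FFGR replicate 1 alone, with 17.7 normalised reads. RARB was assigned to RARB-201 in 30 of 32 libraries. In MFGRD replicate 1 and FFGRD replicate 3, which are among the libraries set apart, RARB-201 was at 0 and RARB-202 held 202 and 145.8 normalised reads, so the sum over the gene was in the range of the other libraries.

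**Figure D4:**
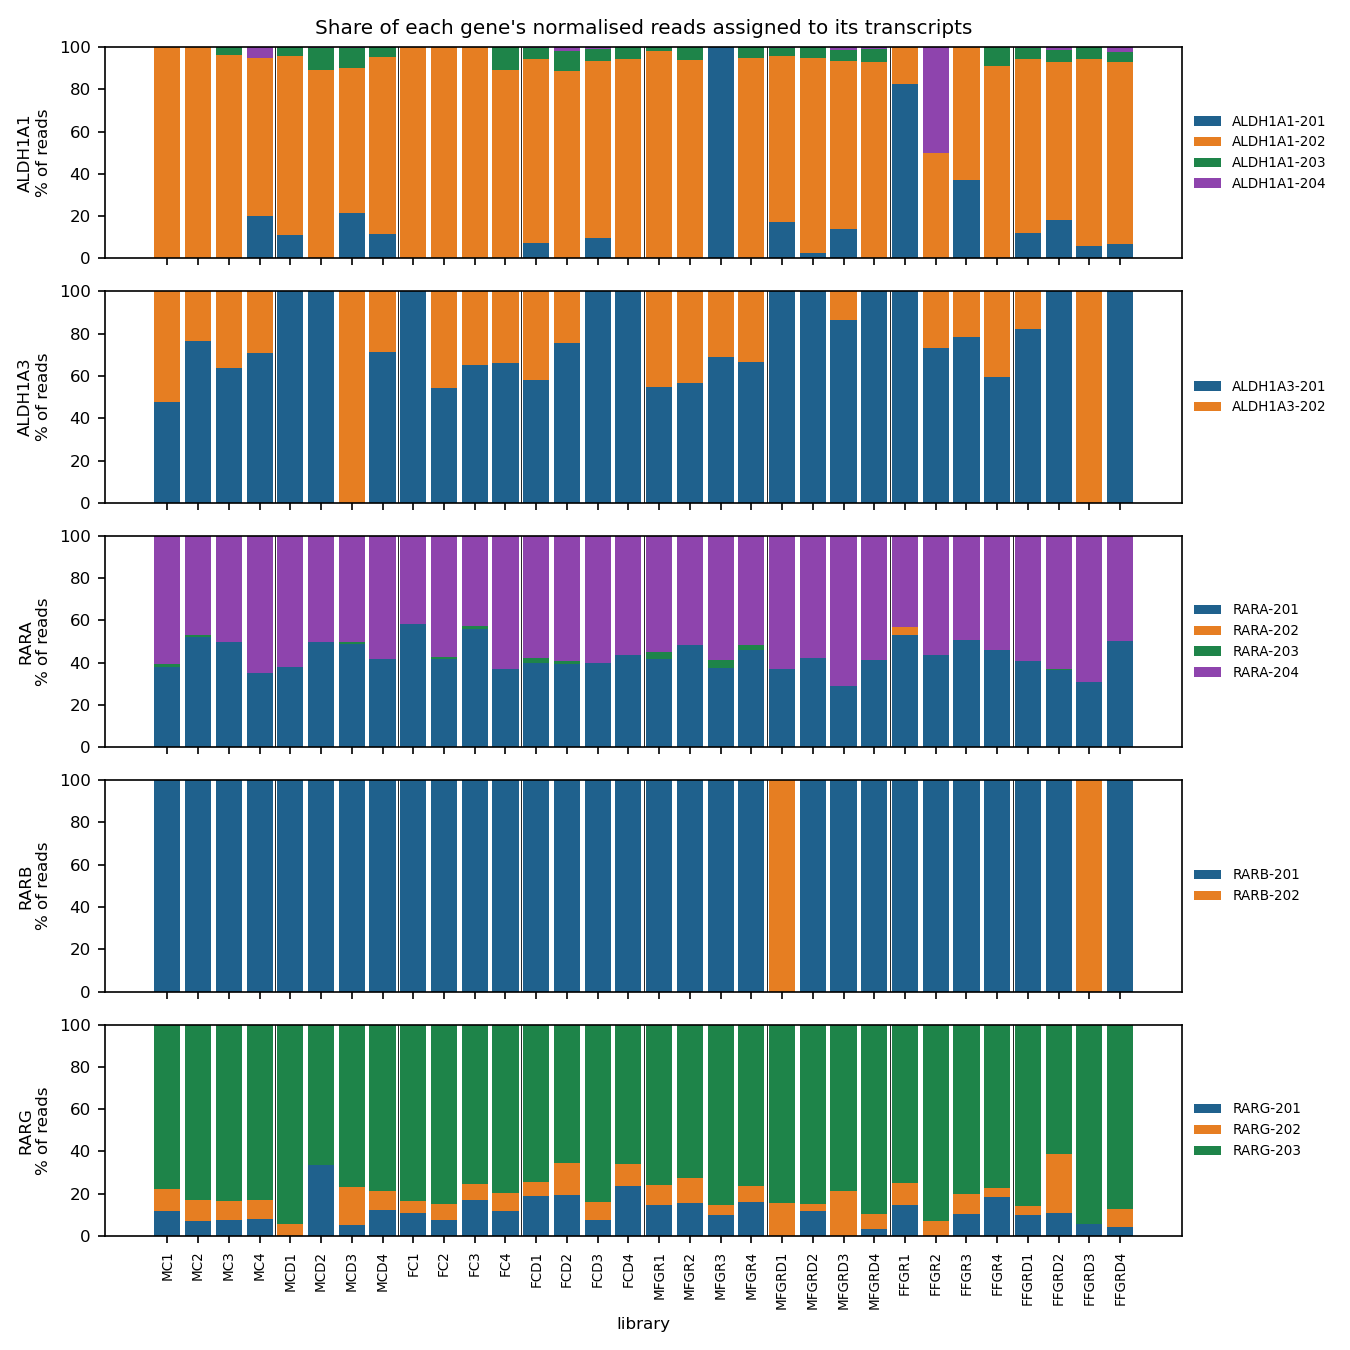
Percent of each gene's normalised reads that was assigned to each of its transcripts, with 1 stacked bar per library and lines between the groups, for the 5 retinoid genes with at least 2 transcripts apart from the scarce ALDH1A2. The RARB bar is RARB-202 in 2 libraries, MFGRD replicate 1 and FFGRD replicate 3, and RARB-201 in the other 30.

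Other genes of the retinoid pathway were taken from lists chosen with earlier results of these data known. The deposited data hold 63 such genes, and 47 were tested, of which 15 were higher and 2 were lower in the mean of the 4 kinds of fetuses, where 12.4% of all genes tested were higher and 14.8% lower, with a median log2 difference of 0.22 beside 0.03 for all genes tested. In MCD against MC 6 of 41 were higher and 1 was lower, against 3.33% and 4.21% of all genes. In MFGRD against MFGR 4 of 41 were higher and 0 lower (limma, 1 lower at an unadjusted p under 0.05), against 1.22% and 2.16%. In FFGRD against FFGR 1 of 41 was called, as lower, against 1.76% of all genes, and in FCD against FC 0 of 42 were called (limma, 6 at an unadjusted p under 0.05), against 0.43%. A single listed gene, which was lower in the mean, in MCD against MC and in FFGRD against FFGR, is counted here but is not reported by name and is not plotted. Among the genes of transport and storage, 4 of the 10 in the deposited data could be tested, of which 1 was higher and 1 was lower. CRABP1, which is closely related to CRABP2, rose by 1.56 (SE 0.49, adjusted p = 0.0152) on the log2 scale, with medians of 140.4 and 364 normalised reads and overlapping ranges. STRA6, the membrane receptor for RBP4, was not called at 0.17 (SE 0.47, adjusted p = 0.826).

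Of the enzymes listed for oxidation or reduction of retinol and retinaldehyde, 9 of the 13 in the deposited data were tested. Of these 9, 5 were higher and 1 was lower, against 12.4% and 14.8% of all genes tested, with a median of 0.81. RDH10, the main retinol dehydrogenase, went from 281 ± 104 to 637 ± 292 (SD, n = 16), a log2 difference of 1.13 (SE 0.21, adjusted p = 9.48e-05). DHRS3, which works in the reverse direction and turns retinaldehyde back to retinol, went from 1025 ± 688 to 2300.1 ± 1804 (SD, n = 16), a log2 difference of 1.10 (SE 0.42, adjusted p = 0.0437). AOX1, an aldehyde oxidase, was higher by 1.85 (SE 0.44, adjusted p = 0.00174), DHRS7, a reductase of the same family as DHRS3, by 0.81 (SE 0.30, adjusted p = 0.0388), and the alcohol dehydrogenase ADH4, whose median was 0 in preadipocytes and 14.9 in differentiated cells, by 2.21 (SE 0.67, adjusted p = 0.0122). ADH5, an alcohol dehydrogenase of general use in cells, was lower, with a log2 difference of -0.59 (SE 0.20, adjusted p = 0.0221). Of 5 enzymes that break down retinoic acid in the deposited data, 1 was tested. This was CYP1B1, a cytochrome P450 of broad substrates, with a median of 520.0 normalised reads in preadipocytes and 295 in differentiated cells, and it was not called at -0.58 (SE 0.41, adjusted p = 0.305). The CYP26 enzymes, which are specific to retinoic acid, were scarce. CYP26A1 exceeded 3 reads in 0 of 16 preadipocyte and 1 of 16 differentiated libraries, CYP26C1 likewise in 0 and 1, and CYP26B1 in 1 and 6.

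Of 20 receptor partners and cofactors tested, 5 were higher and 0 were lower (limma, 1 lower at an unadjusted p under 0.05), a share near the 27.2% of all genes called in this comparison, with a median of 0.20, and the 5 are receptors that include possible partners of RXRA. PPARG, which pairs with RXR proteins to drive fat cell formation, went from 161 ± 169 to 717 ± 655 normalised reads (SD, n = 16), a log2 difference of 2.26 (SE 0.48, adjusted p = 0.000526). THRB, a thyroid hormone receptor, was higher by 2.94 (SE 0.39, adjusted p = 1.08e-06), NR2F1 by 0.86 (SE 0.21, adjusted p = 0.00185) and NR1H4, the bile acid receptor, by 1.74 (SE 0.41, adjusted p = 0.00155) at few reads. RXRG, the third RXR gene, was at 0 in 14 of 16 preadipocyte libraries with a maximum of 0.989, and in differentiated cells it ran from 0.706 to 882 with a median of 33.4 and exceeded 3 reads in 13 of 16 (adjusted p = 9.26e-07). RXRB, the remaining RXR gene, was not called at -0.20 (SE 0.11, adjusted p = 0.183).

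Of the known targets of retinoic acid, leaving out CRABP2 and RARB, 16 were tested, of which 5 were higher and 1 was lower, with a median of 0.19 beside 0.03 for all genes tested. In the full list, with CRABP2 and RARB, 18 were tested, of which 5 were higher and 3 were lower, with a median of 0.04. Among all genes tested, 12.4% were higher and 14.8% lower. TGM2, a transglutaminase, was higher by 1.80 (SE 0.45, adjusted p = 0.00252), the transcription factor KLF9 by 2.48 (SE 0.38, adjusted p = 1.15e-05), HOXA5 by 0.93 (SE 0.17, adjusted p = 0.000103) and DHRS3 by the value given above. UCP1, the uncoupling protein of brown fat, was at 0 in 13 of 16 preadipocyte libraries and above 3 reads in none, and in differentiated cells it ran from 0 to 680.0 with a median of 18.5 (adjusted p = 0.000624). KLF9 was also called in MCD against MC and MFGRD against MFGR, and TGM2 in MCD against MC.

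**Figure D5:**
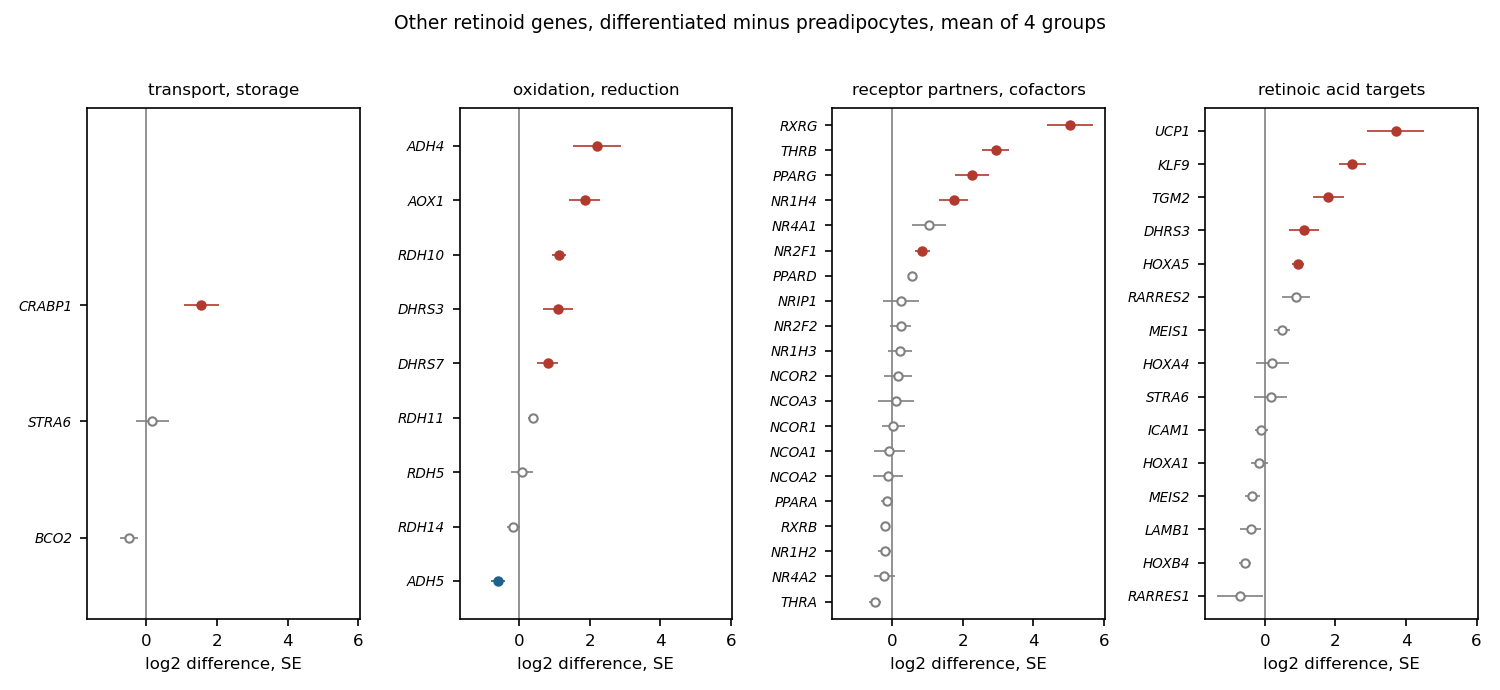
Mean log2 difference between differentiated cells and preadipocytes over the 4 kinds of fetuses (points, standard errors as bars) for other retinoid genes that could be tested. Genes are shown by list, without CYP1B1 and without the 1 gene that is not reported by name. Red marks genes called higher, blue those called lower and open grey those not called. RXRG lies furthest to the right, and most receptor cofactors lie near 0.

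The 2 named genes whose log2 levels followed each retinoid gene most closely over the 32 libraries were sought among 9727 genes, as a description in which libraries share depth and stage. ALDH1A1 was nearest to FGL2 (Pearson r = 0.92, and 0.84 for deviations from the group means) and RTN4RL1 (0.90 and 0.63). ALDH1A3 was nearest to PAMR1 (0.89 and 0.69) and MOCOS (0.88 and 0.70), CRABP2 to DPT (0.92 and 0.65) and TMEM35A (0.90 and 0.57), and RARG to MRGPRF (0.92 and 0.50) and LTBP3 (0.92 and 0.36). RBP4 was nearest to EIF4EBP1 (0.85 and 0.86) and SOD1 (0.84 and 0.84), RXRA to STK40 (0.90 and 0.76) and FZD4 (0.90 and 0.81), RARA to EHD2 (0.74 and 0.78) and EFNB1 (0.73 and 0.81), and RARB to FHAD1 (0.73 and 0.49) and NIPAL2 (0.71 and 0.42). Among the 8 retinoid genes themselves, the deviations from the group means were most alike in ALDH1A1 and RXRA (r = 0.64) and least alike in CRABP2 and RXRA (r = -0.44).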

How the data were processed

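RNA was sequenced from 32 libraries in 8 groups of 4. The labels' extraction text speaks of adipose tissue, whereas the study's methods speak of cell pellets. The authors deposited signal values per transcript, which are read counts from Salmon on the Ensembl Oar_rambouillet_v1.0 transcripts, normalised between libraries with DESeq2. The submitters' processing notes name FastQC 0.11.9, Salmon and DESeq2. Between 46.1% and 85.5% of low values lay within 0.05 of a whole number of reads, so the values were not tested as counts. A value of 10 stood for approximately 5.59 to 14.3 reads. Salmon divides reads between transcripts by estimate, so values of single transcripts are less certain than gene sums. The 21 columns of the authors' own fold changes and p-values were not used, and 0 columns of other samples were present.

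Transcript values were summed by gene and tested as log2(value + 1) with limma 3.58.1 in R 4.3.3, with an empirical Bayes trend, on genes at 10 or more in at least 4 libraries of the fit. Single comparisons used their own 8 libraries, and pooled contrasts used all 32. Group neighbours were compared by a two-sided exact permutation test. The limma steps were tested on simulated data. Groups came from the labels. Same-numbered libraries deviated together in MC and MCD (correlations of 0.155 to 0.667), FC and FCD (0.319 to 0.553) and MFGR and MFGRD (0.437 to 0.744). The replicate number was therefore taken to pair them, from the data and not from a stated source. The fit with it as a block was an alternative for the single comparisons and the mean of the 4 kinds of fetuses. Other alternatives were quantile normalization, a pseudocount of 0.1, leaving out the filter, a filter of 20 CPM in 3 libraries, library weights, the slope of values on genomic span, no trend, the highest transcript of a gene, all 8 groups in 1 fit, each library left out and, chosen after seeing the data, the libraries set apart left out. Text names the 9 genes, listed retinoid genes that were called, and the 2 genes nearest in pattern, and STRA6, RXRB, CYP1B1 and the CYP26 genes were named after their values were seen. The members and lists were chosen with earlier results of these data known. Of the listed genes, 1 that was called lower is not reported here by name, and it stays in the counts.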

Additional observations from a re-analysis of the deposited data

Results flagged for a closer look

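In 9 of the 71 groups of 4 libraries with any spread, 1 library stood far from the other 3 by Dixon's test at the 95% level. Chance does this in about 1 in 20 groups of normally distributed values. The test was run on normalised reads and not on their log2, so the 9 groups cannot be judged against that rate. Those of ALDH1A2 lie near the limit of counting. ALDH1A3 was high in MFGR replicate 4, at 1661 normalised reads with the next library at 445.4, and in FFGRD replicate 1, at 302.7 with the next at 40.5. RBP4 was high in MC replicate 4, at 2870.2 with the next at 1160.2, and in FFGRD replicate 3, at 7020.1 with the next at 2075. CRABP2 was high in MCD replicate 4, at 69.1 with the next at 11.6. RARA was low in FFGRD replicate 4, at 372.7 with the next at 537.9. ALDH1A2 was high in MFGR replicate 3 at 19.7, in FC replicate 3 at 13.9 and in FFGRD replicate 4 at 3.75 normalised reads, with the next library at 1.08, 0.774 and 0.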

How the results depend on the processing

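The 7 retinoid genes called in the mean of the 4 kinds of fetuses stayed 7 in number under each of 10 alternatives. They were 6 to 7 when a library was left out. The 15 other comparisons gave 0 in each fit made. The replicate block was not fitted for the pooled contrasts of sex and growth restriction or for those of the differentiation response. In single comparisons of sex or growth restriction it joined libraries of different kinds of fetuses. Counts in single comparisons moved more. Against 4 in MCD against MC, 2 were called with the filter of 20 CPM and 2 with the highest transcript. Against 2 in FCD against FC, 1 was called without a filter, 0 with 20 CPM and 4 with library weights. Against 3 in MFGRD against MFGR, 5 were called with the span slope and 5 with the replicate block. Against 3 in FFGRD against FFGR, 1 was called with 20 CPM, 6 with library weights, 6 with the span slope, 5 with all 8 groups in 1 fit and 0 without the libraries set apart. Leaving out 1 library gave 2 to 4, 0 to 2, 2 to 3 and 1 to 3 calls in the same order. Of transcripts, against 3 in MCD against MC, 1 was called with 20 CPM, 5 with library weights and 0 without the libraries set apart. Against 0 in FCD against FC, 3 were called with library weights, 2 with the span slope and 3 with all 8 groups. Against 3 in MFGRD against MFGR, 1 was called with 20 CPM, 7 with library weights, 6 with the span slope, 5 with all 8 groups, 6 with the replicate block and 0 without the libraries set apart. Against 1 in FFGRD against FFGR, 2 were called with quantile normalization, 4 with library weights, 4 with the span slope, 3 without trend, 7 with all 8 groups, 0 with the replicate block and 0 without the libraries set apart. Against 13 in the mean, 8 were called with 20 CPM. Leaving out 1 library gave 0 to 2, 0 to 0, 0 to 2 and 0 to 1 transcripts and 12 to 13 in the mean. FFGR and FFGRD were not clearly paired, since their same-numbered correlations ran from -0.486 to 0.632 with 1 of 4 libraries nearest to its own number. Of these correlations 3 of 4 were above 0.1, and their mean was 0.28 against -0.093 for other numbers. The block in the mean of the 4 kinds of fetuses still joined FFGR and FFGRD by number. Signs turned only for values that were not called. When 1 library was left out, RARA ran from -0.0631 (FC replicate 2) to 0.108 in FCD against FC, with -0.0146 for FCD replicate 3, and from -0.0994 (MFGR replicate 4) to 0.153 in MFGRD against MFGR, with -0.0845 for MFGRD replicate 1. RBP4 ran from -0.0378 (FC replicate 3) to 0.355 in FCD against FC. Leaving out the libraries set apart, RARA was -0.0631 in FCD against FC, -0.0510 in MFGRD against MFGR, -0.0122 in FFGRD against FFGR and -0.0022 in the mean. The filter of 20 CPM tests fewer genes, and leaving libraries out leaves fewer samples, but the cause of the changed counts was not tested for any setting. Depth limits ALDH1A2, the CYP26 genes and the scarce transcripts.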
